A study of Mus musculus with 4 samples.

Results

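The cytosolic ribosomal protein genes encode the protein part of the ribosome. They were taken as the protein-coding genes whose symbols begin with Rpl or Rps and a number, together with Rplp0, Rplp1, Rplp2 and Rpsa, leaving out ribosomal S6 kinases, pseudogene names and mitochondrial ribosomal proteins. This gave 86 of 22079 genes: 43 of the large subunit, 31 of the small subunit, 3 of the stalk, 8 paralogs or retrogenes, and Rps19bp1, a binding protein of Rps19 that shares the symbol pattern but is not a ribosomal protein. The 43, 31 and 3 are called the 77 ribosomal proteins proper below. Fau and Rack1, which also encode ribosomal proteins, have other symbols and are described separately.

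The study compared primary hepatocytes from Prom1-deficient (Prom1 -/-, KO) mice with those from wild-type (WT) mice, 2 biological replicates each. Prom1 encodes prominin-1, a cholesterol-binding membrane glycoprotein. Both genotypes were on the C57BL/6 strain and all mice were males aged 8 weeks. The 4 cultures attached for 4 hours in medium 199 with 10% serum, 23 mM HEPES and 10 nM dexamethasone and were then kept overnight without serum. mRNA was sequenced from bulk cultures, and the labels do not say how the Prom1 allele was made.

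Ribosomal proteins are made in near-equal numbers and assemble with ribosomal RNA in the nucleolus. Their mRNAs begin with a cytosine followed by a run of pyrimidines, the terminal oligopyrimidine (TOP) motif, through which LARP1 and mTORC1, a kinase complex that responds to growth factors and amino acids, control their translation. Hepatocytes, which secrete most plasma proteins, hold many ribosomes, and serum withdrawal lowers growth factor input to mTORC1.

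Pyrimidine runs were looked for around the annotated starts. RefSeq (GRCm38.p6) promoter entries were found for 66 of the 86 genes and 57 of the 77 ribosomal proteins proper. Within 50 bases either side of the start, a run of 8 or more pyrimidines on the sense strand was present in 48 of the 57 (84.2%), against 39.3% of the 27025 genes with an entry. The longest run had a median of 11 bases in the 57 and 7 in all genes. The following windows are shown because they carry this shared feature at genes whose values are given below; each reads 5′ to 3′ on the gene's strand, with the longest pyrimidine run in capitals. A run need not lie at the annotated start or begin with C, so it is not by itself a TOP motif: at Rps15a it ends before the start, at Rps12 it begins after it, and at Rplp2 and Rpl22l1 its first letter is T.
Rps27, chr3:90213632-90213661 (-): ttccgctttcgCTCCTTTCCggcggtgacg
Rps15a, chr7:118116143-118116172 (-): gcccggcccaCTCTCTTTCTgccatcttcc
Rps12, chr10:23787182-23787211 (-): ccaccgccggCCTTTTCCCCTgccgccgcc
Rpl18, chr7:45718062-45718091 (+): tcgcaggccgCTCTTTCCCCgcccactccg
Rps6, chr4:86857349-86857378 (-): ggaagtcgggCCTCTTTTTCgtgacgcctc
Rplp2, chr7:141447636-141447665 (+): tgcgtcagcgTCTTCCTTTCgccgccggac
Rpl35, chr2:39005115-39005144 (-): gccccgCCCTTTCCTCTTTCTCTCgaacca
Rpl22l1, chr3:28805499-28805528 (+): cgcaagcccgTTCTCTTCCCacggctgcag

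The windows were chosen for their run, so its presence in them says nothing of the KO minus WT differences given below. The letters CTTTCC stood on the sense strand within 50 bases of the start in 18 of the 57 genes (31.6%), against 5.43% of all genes. In the whole window of 300 bases, 250 before and 50 after the start, CCGGAAG on either strand, the core letters of an ETS-family site, was in 42.1% of the 57 and 9.93% of all genes. GGGCGG, the core of an Sp1 site, was in 61.4% and 38.2%, and TATAAA in 10.5% and 15.7%. These are matches of letters and not measured sites.

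The genes lay on 19 chromosomes, with 14 on chromosome 7, so they share no single locus. Of the 86, 30 carried small nucleolar RNA genes inside them, 58 in all, and 60 had annotated "-ps" pseudogenes, 298 in all, whose near-identical sequence could take or lend fragments. A protein-coding gene overlapped 16 of them on the opposite strand and 4 on the same strand; the library kit marks strand, and whether the counting used strand is not stated in the labels.

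The deposited values were FPKM, fragments scaled to transcript length and library size. A rough depth estimate from the lowest values was 16600000 and 15500000 fragments in KO 1 and KO 2. For WT 1 and WT 2 it was 17400000 and 16300000. The estimate used only values within a range fixed in advance, which limits the depths it can return. At that depth, and with the coding length taken as the length, each ribosomal protein proper had an estimated 900 fragments or more in every library. The largest counting error from these estimates was 3.33%. Both figures are rough and not strict bounds. Prom1 was listed at 0 and at 0.0458 FPKM in KO 1 and KO 2, against 0.571 and 1.22 FPKM in WT 1 and WT 2. Each KO value was under each WT value, as the genotype labels say, although the level was low and limma's adjusted p over 15152 genes was 0.755. Alb, the albumin gene, was listed at 0 in WT 2 and between 25551 and 32670 FPKM in the other libraries, so every share of total FPKM is given with and without it.

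Ribosomal protein mRNAs differed over a moderate range of level, and the order of levels was nearly the same in each library. The median of the 77 ribosomal proteins proper was 447 FPKM, and 69 of them averaged between 200 and 800 FPKM. Rplp1, an acidic protein of the stalk that recruits translation factors, was highest, at 1809 and 1853 FPKM in the KO libraries and 1711 and 1855 FPKM in the WT libraries. Rps29, a zinc-binding protein of the small subunit, followed at 1186 and 1309 FPKM in KO and 1194 and 1268 FPKM in WT. Neither gene separated the genotypes. Rpl10, which joins the large subunit late in its assembly, had 1001 and 1087 FPKM in KO and 1066 and 1100 FPKM in WT. At the other end, Rpl31, a protein beside the exit tunnel, had 184 and 208 FPKM in KO and 203 and 201 FPKM in WT. Rpl35, named because it was the lowest of the 77 once levels were known, averaged 193 FPKM over the 4 libraries.

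The highest mean level was 9.38 times the lowest. Down the order of levels, the ranges over the 4 libraries overlapped for 73 of 76 neighbouring pairs, so most neighbours cannot be ranked. The exceptions were Rplp1 above Rps29, Rps29 above Rpl10, and Rps15a above the gene after it. Spearman's rho of the levels between libraries was 0.979 to 0.991 across genes, and that of level with coding length was 0.0448, both as descriptions over genes that share libraries. Coding lengths ran from 75 nucleotides in Rpl41, the shortest ribosomal protein, to 1257 nucleotides.

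**Figure D1:**
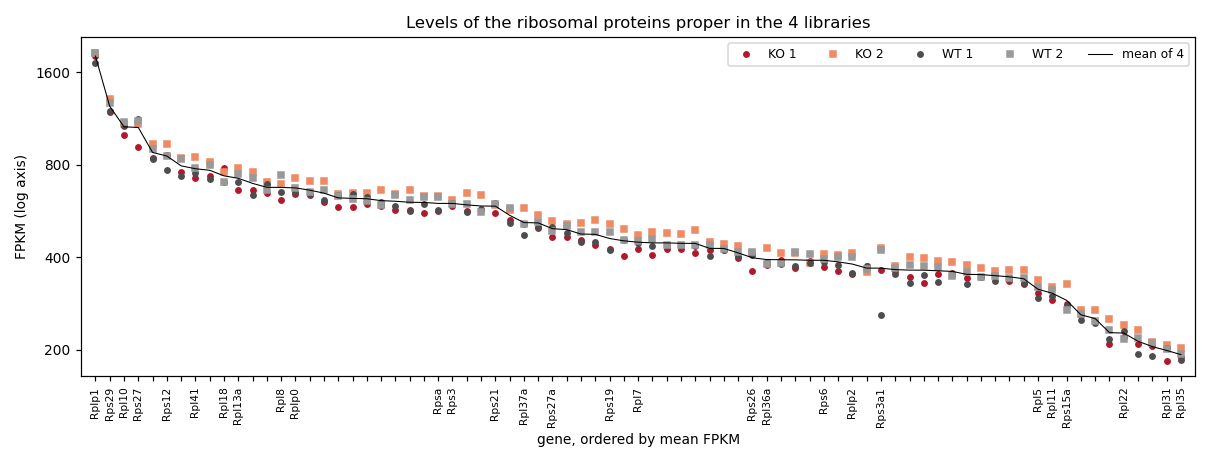
FPKM on a log axis of the 77 ribosomal proteins proper, ordered by their mean over the 4 libraries; points are single libraries, the line is the mean, and part of the genes are labelled. The 4 libraries follow nearly the same order from Rplp1 at 1807 FPKM to Rpl35 at 193 FPKM, and the WT 1 point of Rps3a1 stands apart.

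No ribosomal protein gene passed the test between KO and WT hepatocytes, and the differences were small. Of the 86 genes, 83 averaged at least 1 FPKM and were tested; Rpl10l and Rpl3l, the testis and muscle counterparts of Rpl10 and Rpl3, were listed at 0 in every library, and Rpl39l was listed at 0 in 3 libraries and at 0.0945 FPKM in WT 1. With limma on log2(FPKM + 1) and Benjamini-Hochberg adjustment over 10407 genes, 0 of the 83 had an adjusted p under 0.05, against 0.0% of all genes, and the lowest adjusted p was 0.774. None had an unadjusted p under 0.05 either, against 7.29% of all genes, 3.1% higher and 4.19% lower in KO. The genotypes did not overlap for 11 of the 83, against 38.1% of all genes: KO was above WT for 9, against 18.3% of all genes, and below for 2, against 19.8%.

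The 83 log2 differences (KO minus WT) ran from -0.17 to 0.37, with a median of 0.04 and 60 above 0; over all genes the median was 0.00 and 49.7% were above 0. Single libraries set this direction: without KO 2 the median was -0.0425 with 22 above 0, without KO 1 it was 0.105 with 78, and without WT 1 it was 0.00281 with 42. Their 10th to 90th percentiles were -0.04 and 0.09, against -0.25 and 0.24 for all genes. The median absolute difference was 0.0435 on the log2 scale, and 0.118 for all genes. The 95% interval of the difference stayed within 0.5 of 0 for 80 of the 83, against 55.6% of all genes; the exceptions were Rps27, Rps3a1 and Rps27rt. The 238 other genes within the FPKM range of the 77 ribosomal proteins proper had a median absolute difference of 0.108, against 0.0408 for the 77. Of the 238, 133 had an interval within 0.5 of 0, as did 75 of the 77. In bulk RNA, fewer cells of a type and less RNA per cell cannot be told apart.

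**Figure D2:**
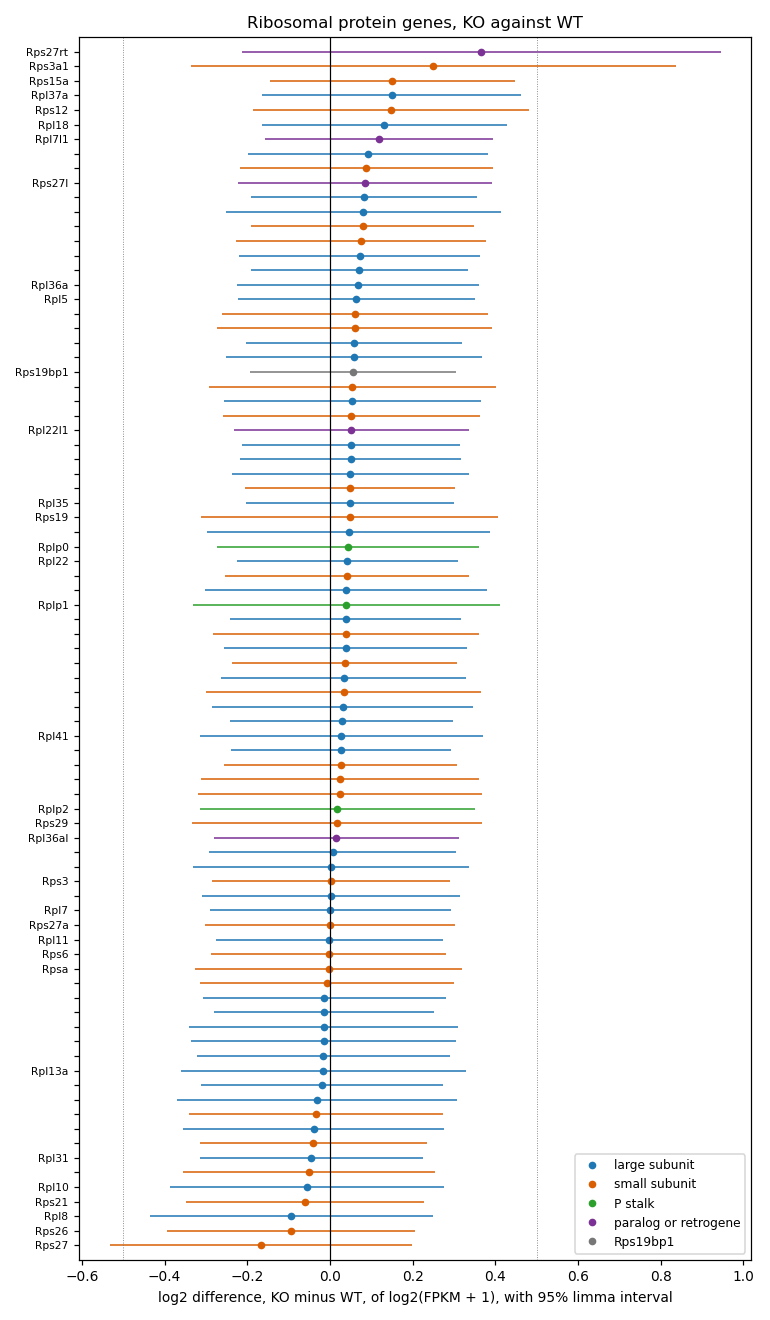
Log2 difference, KO minus WT, of log2(FPKM + 1) for each of the 83 genes tested, ordered by size; points are estimates, lines are 95% limma intervals, colours mark the subunit, part of the genes are labelled, and dotted lines stand at 0.5 either side of 0. Every interval crosses 0, and those of Rps27, Rps3a1 and Rps27rt pass a dotted line.

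The subunits did not part. Of the 43 large subunit genes 30 had a difference above 0 and 13 below, with a median of 0.03 on the log2 scale. Of the 31 small subunit genes 21 were above and 10 below, also with a median of 0.03. The 3 stalk genes were above 0: Rplp0, the scaffold of the stalk, had 642 and 724 FPKM in KO and 651 and 673 FPKM in WT. Rplp2, the partner of Rplp1, had 352 and 413 FPKM in KO and 355 and 399 FPKM in WT. In both, the libraries of the genotypes overlapped. The 30 genes that host small nucleolar RNAs had a median log2 difference of 0.04, and the other 47 of the 77 one of 0.03.

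Among the genes with the lowest moderated t, Rps27, a zinc-finger protein of the small subunit, had 911 and 1086 FPKM in KO and 1124 and 1110 FPKM in WT. Both KO libraries were below both WT libraries, with a log2 difference of -0.17 (SE 0.149, adjusted p = 0.826 by limma), and KO 1 was the lower. Without KO 1 the difference was -0.04. Rps26, a small subunit protein at the mRNA exit channel, had 359 and 412 FPKM in KO and 406 and 416 FPKM in WT. Its libraries overlapped, and the log2 difference was -0.09. Rpl8, next to the peptidyl transferase centre, had 614 and 691 FPKM in KO and 651 and 743 FPKM in WT, a log2 difference of -0.09 with overlap. Rps21, of the small subunit, had 559 and 589 FPKM in KO and 603 and 595 FPKM in WT, without overlap and with a log2 difference of -0.06.

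At the high end, Rps15a, a small subunit protein that contacts ribosomal RNA, had 282 and 328 FPKM in KO and 278 and 270 FPKM in WT. The log2 difference was 0.15 (SE 0.121, adjusted p = 0.815 by limma), and KO 1 lay only just above WT 1. Rpl37a, a zinc-binding large subunit protein, had 513 and 578 FPKM in KO and 471 and 512 FPKM in WT, a log2 difference of 0.15. Rps12, of the small subunit, had 863 and 932 FPKM in KO and 767 and 854 FPKM in WT, a log2 difference of 0.15. For both, KO 1 and WT 2 were nearly equal. Rpl18, of the large subunit, had 780 and 759 FPKM in KO and 704 and 700 FPKM in WT, a log2 difference of 0.13 with the genotypes apart by more than the spread within either. It was the one gene among the 83 that was highest in KO 1. Its adjusted p was 0.828 by limma.

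Rps3a1, a small subunit protein named after its values were seen, had the widest spread of the 77: 363 and 428 FPKM in KO and 260 and 422 FPKM in WT. It was the only one of the 77 whose highest library exceeded its lowest by more than 1.3 times, and the low value was WT 1. The log2 difference was 0.25 with all libraries and -0.10 without WT 1. The median ratio of highest to lowest library was 1.12 over the 77.

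Ribosomal proteins with roles outside or at the edge of the ribosome had values that overlapped between genotypes. Rps6, the target of the S6 kinases downstream of mTORC1, had 370 and 411 FPKM in KO and 386 and 395 FPKM in WT. Rpl5, which with Rpl11 and 5S RNA binds and inhibits Mdm2, had 306 and 337 FPKM in KO and 294 and 320 FPKM in WT. Rpl11 had 291 and 319 FPKM in KO and 298 and 312 FPKM in WT. In these 3 genes KO 2 was the highest library. Rps27a, made as a fusion with ubiquitin, had 466 and 526 FPKM in KO and 502 and 488 FPKM in WT. Rpsa, also known as the laminin receptor, had 564 and 632 FPKM in KO and 569 and 629 FPKM in WT. Rps3, at the mRNA entry channel, had 585 and 613 FPKM in KO and 599 and 596 FPKM in WT. In all 3, KO 1 was the lowest library and KO 2 the highest. Rpl13a, a large subunit protein also known from the human GAIT complex, had 661 and 778 FPKM in KO and 704 and 748 FPKM in WT. Rps19, mutated in human Diamond-Blackfan anaemia, had 425 and 511 FPKM in KO and 421 and 483 FPKM in WT. Rpl41 had 723 and 847 FPKM in KO and 752 and 783 FPKM in WT.

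The spread that these genes showed was largely shared by library. KO 2 was the highest of the 4 libraries for 72 of the 83 genes, against 26.3% of all genes, and KO 1 was the lowest for 44 of them, against 30.8% of all genes. WT 1 was the lowest for another 30. Relative to each gene's mean over the libraries, the median ribosomal protein gene stood at -0.06 in KO 1 and 0.09 in KO 2, and at -0.04 in WT 1 and 0.02 in WT 2, on the log2 scale. The corresponding medians of all genes were between -0.01 and 0.01. The replicates of one genotype thus differed more than the genotypes: KO 1 minus KO 2 had a median of -0.15 over the 83 genes, with 3 of them higher in KO 1, and WT 1 minus WT 2 had a median of -0.05.

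**Figure D3:**
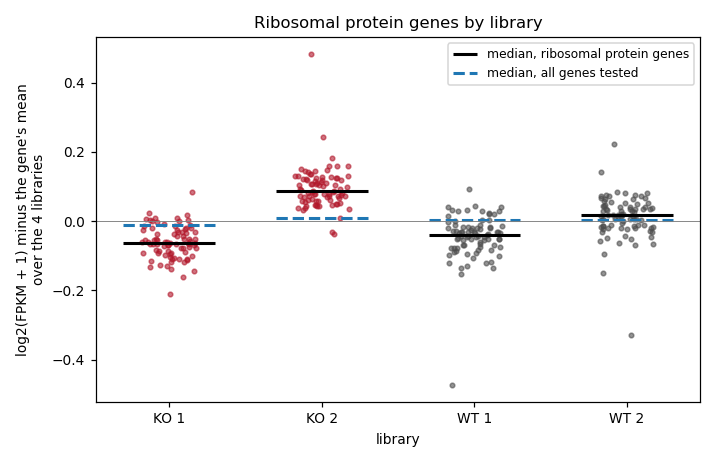
Log2(FPKM + 1) minus the gene's mean over the 4 libraries, one point for each of the 83 ribosomal protein genes in each library; solid lines are their medians and dashed lines the medians of all genes tested. The ribosomal protein genes sit high in KO 2 and low in KO 1, while the medians of all genes stay near 0.

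Marker genes of hepatocytes and other cell types, and other genes at these levels, were read in the same libraries. The summed FPKM of 10 sinusoidal endothelial markers was 60.3 and 31.0 in KO and 47.1 and 43.6 in WT, and that of 10 stellate and fibroblast markers 26.0 and 11.7 in KO and 15.2 and 17.1 in WT. Both sums were highest in KO 1 and lowest in KO 2, the reverse of the ribosomal protein medians. The macrophage and cholangiocyte sums were instead higher in both KO libraries. The 12 macrophage markers summed to 426 and 494 FPKM in KO and 380 and 376 FPKM in WT, nearly all of it Cd68. Timd4 and Clec4f, which define Kupffer cells, stayed under 2 FPKM. Of the 8 macrophage markers tested, KO was above WT without overlap for 3, against 18.3% of all genes: Cd68, Lyz2 and Adgre1. It was below for 1, C1qa, against 19.8%. Lyz2 had 16.6 and 11.9 FPKM in KO and 6.84 and 7.86 FPKM in WT. The 8 cholangiocyte markers summed to 61.8 and 74.7 FPKM in KO and 53.5 and 50.6 FPKM in WT, with Krt19, Krt7 and Epcam under 0.3 FPKM. That difference came from Cldn4, with 24.9 and 51.5 FPKM in KO and 17.9 and 18.2 FPKM in WT. Spp1 had 27.0 and 16.8 FPKM in KO and 26.6 and 25.7 FPKM in WT. Sox9 had 9.68 and 6.05 FPKM in KO and 8.33 and 6.49 FPKM in WT. Both overlapped between genotypes and were highest in KO 1 and lowest in KO 2. The 7 lymphocyte markers were at or near 0. The 11 hepatocyte markers had median offsets from the gene mean of -0.25 in KO 1 and 0.02 in KO 2. In WT 1 and WT 2 they were -0.16 and 0.25. Each sign was that of the ribosomal protein genes, but the highest library was WT 2 here and KO 2 there. Of the 11 markers, 3 had a log2 difference above 0 and 8 below, with a median of -0.23. KO was below WT without overlap for 2, against 19.8% of all genes, and above for 0, against 18.3%. One of the former was Hnf4a, with 64.9 and 59.5 FPKM in KO and 90.4 and 95.8 FPKM in WT. The part of these cells in the library offsets was not tested. The 238 other genes of like level had medians of -0.11 in KO 1 and 0.06 in KO 2, and -0.01 in WT 1 and 0.04 in WT 2, with the same sign in each library as the ribosomal protein genes.

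When each library was centred on the median of the 77 ribosomal proteins proper, a scaling added after the data were seen, the genes lay closer together. The median within-group SD of the 83 fell to 0.0485 on the log2 scale, against 0.0904 before. That of all genes rose to 0.150, against 0.1255 before. This scaling uses the same genes it is then read on, so the narrower spread of the 83 is a description only. For 74 of the 83, the 4 libraries spanned less than 0.2. KO was above WT without overlap for 6 genes and below for 10, against 11.1% and 21.3% of all genes, and 67 overlapped (32.5% of all genes did not). By limma, 0 of the 83 had an adjusted p under 0.05, against 0.0961% of all genes, and 0 an unadjusted one, against 6.23%. Rps27 stood at -0.19 (95% interval -0.453 to 0.071).

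The share of all FPKM taken by the 86 genes was 7.84% and 7.93% in KO and 7.59% and 7.97% in WT. The genotypes overlapped. Without Alb the shares were 8.27% and 8.43% in KO and 8.01% and 7.97% in WT, which did not overlap, a difference of 0.360 percentage points. With 2 libraries a group an exact two-sided permutation test cannot reach 0.05.

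Several ribosomal proteins have a second gene, and the level of the paralog was compared with that of its parent within each library. A ratio removes a library offset only as far as both genes carry it, which was not tested. Rpl22l1, a paralog that can replace Rpl22 in the ribosome, had 203 and 234 FPKM in KO and 214 and 206 FPKM in WT, and stood at 92.4% and 97.4% of Rpl22 in KO and 93.0% and 95.3% in WT. These overlapped. Rps27l, a p53-responsive paralog of Rps27, had 419 and 484 FPKM in KO and 431 and 417 FPKM in WT. Relative to Rps27 it stood at 46.0% and 44.5% in KO and 38.4% and 37.6% in WT. The KO ratios were above the WT ratios, with a log2 difference of 0.25. As single genes, Rps27l had a log2 difference of 0.09 with overlap and Rps27 one of -0.17. The ratio thus largely restates the lower Rps27 given above.

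For Rpl36al, an intron-poor copy of Rpl36a, the share of the parent was 46.3% and 48.6% in KO and 49.0% and 49.4% in WT. The KO libraries were below the WT libraries by 0.05 on the log2 scale. Rpl7l1, a paralog of Rpl7 that acts in pre-ribosomes, stood at 7.0% and 6.83% of it in KO and 6.84% and 5.91% in WT, and these overlapped. The exact two-sided permutation p was 0.33 for Rps27l and Rpl36al, the smallest the design can give, and adjusted over the 4 ratios the lowest was 0.666. Thus 2 of the 4 ratios did not overlap, while 38.1% of all genes tested did not overlap as single levels.

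**Figure D4:**
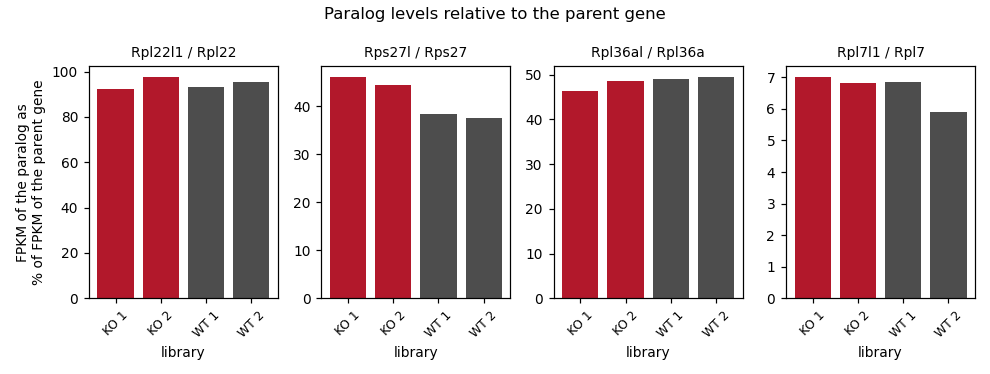
FPKM of 4 paralogs as a percentage of the FPKM of their parent gene, one bar per library with the KO libraries at left in red and the WT libraries at right in grey; axes start at 0 and differ between panels. Rps27l stands at 46.0% and 44.5% of Rps27 in KO against 38.4% and 37.6% in WT, while the other pairs differ less between genotypes.

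Rps27rt is a retrogene of Rps27 that lies within Osbpl10, on the opposite strand, and had 3.69 and 6.11 FPKM in KO and 3.97 and 3.05 FPKM in WT. Its log2 difference of 0.37 was the highest of the 83, with overlap between genotypes. The annotated starts of the parent and the retrogene share 38 bases, of which 30 are shown in both places to show the identity of parent and copy there.
Rps27, chr3:90213618-90213647 (-): ctttccggcggtgacgacctccctacgaga
Rps27rt, chr9:114982710-114982739 (-): ctttccggcggtgacgacctccctacgaga

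A transfer of fragments between these genes was not tested. Rps27rt was at most 0.563% of Rps27 in level in any library. Rps19bp1, the binding protein, had 16.0 and 16.7 FPKM in KO and 15.7 and 15.8 FPKM in WT.

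The genes that make and regulate ribosomes were compared as lists, none of which held a gene with an adjusted p under 0.05 by limma. Ribosome biogenesis and assembly factors were mostly higher in direction: 50 of 59 were above 0 and 9 below, with a median log2 difference of 0.09. KO was above WT without overlap for 26 of them, against 18.3% of all genes. Nop56, a core protein of box C/D small nucleolar ribonucleoproteins, had 217 and 198 FPKM in KO and 151 and 147 FPKM in WT, a log2 difference of 0.48 (SE 0.104, adjusted p = 0.519 by limma). Gar1, a core protein of box H/ACA particles, had 61.6 and 68.4 FPKM in KO and 48.7 and 52.97 FPKM in WT. In both genes the KO libraries were clear of the WT libraries. Imp4, of the small subunit processome, had 41.5 and 38.9 FPKM in KO and 32.5 and 29.9 FPKM in WT. Utp20, also of the processome, had 21.1 and 22.5 FPKM in KO and 18.2 and 17.6 FPKM in WT.

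The list for RNA polymerase I and ribosomal RNA transcription held 19 genes. Among them were Polr3a and Polr3b of RNA polymerase III and the transcription factors Myc and Max. Of the 19, 17 were above 0 and 2 below, against 49.7% of all genes above 0, with a median log2 difference of 0.11. Taf1b, a subunit of the SL1 promoter factor, had 6.35 and 7.19 FPKM in KO and 5.54 and 4.96 FPKM in WT. Ubtf, the upstream binding factor, went the other way with 20.2 and 20.0 FPKM in KO and 22.7 and 22.4 FPKM in WT. Neither gene overlapped between genotypes. As medians relative to the gene mean, the biogenesis list stood at 0.04 and 0.03 in KO 1 and KO 2 and at -0.05 and -0.04 in WT 1 and WT 2; a difference from the ribosomal protein genes in this was not tested.

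Translation factors and other mRNAs known to carry a TOP start had library medians close to those of the ribosomal proteins: -0.06 in KO 1 and 0.09 in KO 2, and -0.05 in WT 1 and 0.04 in WT 2. Of these 23 genes 13 were above 0 and 10 below, with a median log2 difference of 0.03. Vim, the intermediate filament protein whose mRNA carries a TOP start, had 17.6 and 22.5 FPKM in KO and 11.8 and 13.3 FPKM in WT, and Eef1g, of the elongation factor complex, 281 and 281 FPKM in KO and 249 and 251 FPKM in WT. The KO libraries were above the WT libraries in both. Among 30 genes of mTORC1, S6 kinase and LARP1 signalling, 11 were above 0 and 19 below, with a median of -0.06. The list holds both activators and inhibitors of mTORC1, so its median gives no direction of the pathway. Sesn1, a leucine-sensing inhibitor, had 2.19 and 2.34 FPKM in KO and 3.02 and 4.55 FPKM in WT. Tbc1d7, of the inhibitory TSC complex, went the other way, with 5.95 and 6.36 FPKM in KO and 4.82 and 4.61 FPKM in WT.

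The 78 mitochondrial ribosomal protein genes, which build a separate ribosome, had 41 above 0 and 37 below, with a median log2 difference of 0.01. Their median absolute difference was 0.115, near that of all genes and above the 0.0435 of the cytosolic set, a comparison with no test. Mrpl41 had 14.6 and 12.5 FPKM in KO and 18.8 and 18.5 FPKM in WT, and Mrpl23 had 14.1 and 13.7 FPKM in KO and 9.89 and 11.3 FPKM in WT. Neither overlapped between genotypes. Fau, which encodes a small subunit protein fused to a ubiquitin-like domain, had 515 and 519 FPKM in KO and 504 and 562 FPKM in WT. Rack1, a scaffold on the small subunit, had 531 and 576 FPKM in KO and 533 and 575 FPKM in WT, and both overlapped between genotypes. The 17 genes of ribosome quality control had 11 above 0 and 6 below, the 4 of nucleolar stress and p53 had 2 and 2, and the 3 p90 ribosomal S6 kinases had 1 and 2.

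**Figure D5:**
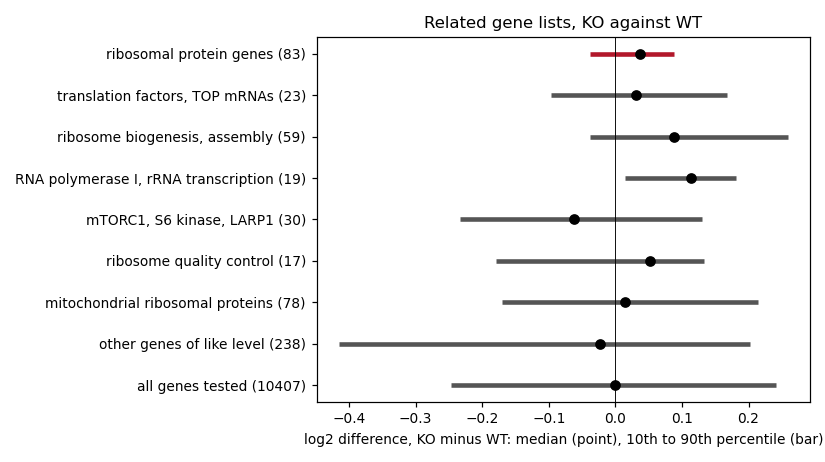
Median log2 difference, KO minus WT, of each gene list (point) with its 10th to 90th percentile (bar), and the number of genes tested in brackets. The bar of the 83 ribosomal protein genes, from -0.04 to 0.09, is shorter than that of all genes, from -0.25 to 0.24.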

How the data were processed

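mRNA from 2 KO and 2 WT hepatocyte cultures was sequenced with a strand-marking kit, per the labels. The deposited table held FPKM per Ensembl gene, made by the authors with STAR 2.5.0, Cufflinks and Cuffdiff 2.2.1 on mm10, per the submitters' processing notes; no annotation or strand setting is given in the sources used here. Symbols came from GENCODE M21 (22061 of 22079 IDs matched). Counts were not used, so depth was estimated from the lowest values of genes with a single annotated transcript, assuming fragments of 200 nucleotides. Only values within a range fixed in advance for a single fragment entered, so the depth is a rough figure. Fragments per gene were then estimated with the coding length.

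Values were tested as log2(FPKM + 1), for genes averaging at least 1 FPKM, with limma 3.58.1 in R 4.3.3 (lmFit and eBayes with an intensity trend, Benjamini-Hochberg adjustment over 10407 genes), after a test on simulated data. A fold change on this scale understates that of low genes. Paralog ratios used exact two-sided permutation tests (scipy 1.17.1). The members and lists were chosen with earlier results of these data known. Genes named with values were 6 at each end of the moderated t, the 3 highest and 3 lowest levels, the stalk proteins, Rpsa, paralog pairs, genes under the filter, members with roles outside the ribosome, and up to 4 genes of each related list. Alternatives were other pseudocounts, filters, scalings, no intensity trend, a replicate block, and leaving out each library. A list of noncoding snoRNA host genes was not analysed here. A few genes that the rule names are counted but not reported here.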

Additional observations from a re-analysis of the deposited data

How the results depend on the processing

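The count of ribosomal protein genes with an adjusted p under 0.05 was 0 under every alternative run. Over all genes it was 0, except 10 with libraries centred on the ribosomal proteins, none of them a ribosomal protein gene, and 0 to 8 when 1 library was left out (8 without WT 1, 5 without KO 1). The direction of the median ribosomal protein gene rested on single libraries. The median log2 difference of 0.0377 became 0.105 without KO 1, with 78 genes above 0 in place of 60, and -0.0425 without KO 2, with 22. Leaving out WT 1 gave 0.00281 with 42 above 0, and leaving out WT 2 gave 0.0593 with 68. Scaling to the same total without Alb gave a median of 0.0779 with 76 above 0, while the median of all genes was 0.0347. The difference in FPKM share was 0.104 percentage points, 0.36 without Alb, and -0.0845 to 0.293 with 1 library left out. Of the 4 paralog ratios, 2 did not overlap, also with a pseudocount of 0.1 or 5. Leaving out 1 library sets 1 library against 2, which separate more easily, so no count is given for it. The Prom1 difference lay between -1.12 and -0.62 with 1 library left out, and was -2.96 with a pseudocount of 0.1 and -0.229 with one of 5. The biogenesis list kept a positive median, 0.0618 to 0.0832, with 42 to 49 of 59 above 0, when 1 library was left out; its count of 50 became 44 with centring on the ribosomal proteins. The median of the other TOP mRNAs ran from -0.0422 to 0.106. With the replicate block, 0 ribosomal protein genes and 0 of all genes were called, and 1054 genes had an unadjusted p under 0.05, against 759 without it. The same-number deviations correlated at 0.151 over all genes and -0.0526 over the ribosomal protein genes, and with 2 pairs the numbers were not taken as pairing.

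Differences near 0 changed sign. With median-of-ratios scaling Rps27a stood at 0.000833. With the total without Alb, Rpsa stood at 0.0369, Rps6 at 0.037, Rpl11 at 0.0386, Rpl13a at 0.0237, Rps27a at 0.0401, Mdm4 at 0.0317, Rps6ka3 at 0.0227 and Rack1 at 0.0388. With centring, Rps29 stood at -0.00622, Rplp2 at -0.00612, Rpl36al at -0.00871, Rpl7 at -0.023 and Rps3 at -0.0218. With 1 library left out, the log2 difference spanned 0 in these ranges: Rpl5 -0.00527 to 0.134, Rpl7 -0.0762 to 0.0788, Rpl8 -0.189 to 0.00214, Rpl10 -0.114 to 0.00478, Rpl11 -0.0681 to 0.065, Rpl13a -0.135 to 0.102, Rpl22 -0.0211 to 0.105, Rpl22l1 -0.0493 to 0.153, Rpl31 -0.131 to 0.0417, Rpl36a -0.0216 to 0.156, Rpl36al -0.108 to 0.139, Rpl41 -0.0867 to 0.142, Rplp0 -0.0436 to 0.131, Rplp1 -0.0186 to 0.0976 and Rplp2 -0.0957 to 0.132. The small subunit ranges were Rps3 -0.0317 to 0.0366, Rps3a1 -0.0984 to 0.599, Rps6 -0.078 to 0.0717, Rps19 -0.0861 to 0.181, Rps26 -0.192 to 0.0041, Rps27a -0.0874 to 0.0872, Rps27l -0.0171 to 0.188, Rps29 -0.0532 to 0.0894 and Rpsa -0.0858 to 0.0792. Beside them, Fau ran from -0.121 to 0.0364, Mdm2 from -0.0523 to 0.107, Mdm4 from -0.0259 to 0.0114, Rack1 from -0.0601 to 0.0572 and Rps6ka3 from -0.117 to 0.0892. The cause of these changes was not tested.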
